A study of Mus musculus with 12 samples.

Results

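The 10 genes described here encode TNF, related ligands of the TNF superfamily, receptors, adaptors and a TNF-induced protein. They were chosen by name for their part in TNF and TNF receptor signalling, with earlier results of these data known. The set comprises the ligand genes Tnf, Tnfsf10 and Tnfsf15, the receptor genes Tnfrsf1a, Tnfrsf1b, Tnfrsf9 and Fas, the adaptor genes Traf1 and Traf2, and Tnfaip2. They are 10 of 55335 genes listed, and all 10 were among the 14357 genes with enough reads to be tested.

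Bulk RNA-seq was available for 12 libraries of bone marrow-derived dendritic cells (BMDCs), which are grown from mouse bone marrow for 6 days with the cytokine GM-CSF and selected by beads for the surface protein CD11c. The study used cells of adult male and female C57BL/6 mice of genotype CreER;CTCF wt/wt, so that every group carried the Rosa26-CreER transgene and an intact Ctcf gene. In 4 groups of 3 libraries, WT cells received neither agent, WTL cells received 100 ng/ml lipopolysaccharide (LPS) for 3 h, WT + JSH23 cells received 100 µM JSH-23 for 3 h, and WTL + JSH23 cells received JSH-23 for 3 h before LPS. LPS is a component of bacterial outer membranes that activates dendritic cells through the receptor TLR4, and JSH-23 is a small molecule described as keeping RelA, a subunit of NF-κB, out of the nucleus. The study's methods give hydroxytamoxifen, which activates CreER, on day 1 of culture for deletion of floxed Ctcf, which these WT cells do not carry, and their wording does not settle whether the WT cultures received it too. Whether the groups without JSH-23 received its solvent was not stated in the sources used here. As described, the WTL + JSH23 cells had 3 h of LPS after 3 h of JSH-23, and the WT + JSH23 cells had 3 h of JSH-23 alone. The time from JSH-23 to harvest may then differ between these groups, and comparisons between them cannot tell it apart from LPS. The CD11c selection does not separate dendritic cells from other CD11c+ cells of GM-CSF cultures, and the transgene driver is active in all cell types.

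TNF is made as a membrane protein on activated myeloid cells, and it can be cut from the surface and act at a distance. TNFR1, encoded by Tnfrsf1a, carries a death domain and is found on most cell types, whereas TNFR2, encoded by Tnfrsf1b, lacks a death domain, binds TRAF proteins directly and is found mainly on immune and endothelial cells. Signals from these receptors pass through TRAF adaptors and ubiquitin enzymes to NF-κB and MAP kinases, or to caspases, and Tnf is itself a known target gene of NF-κB.

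Total expected counts per library ran from 24664724 to 34837847. Among 10 dendritic cell genes, those of CD11c and of MHC class II presentation were abundant, with mean levels of at least 598 CPM of Itgax, which encodes CD11c, and at least 7927 CPM of Cd74 in each group. Ccr7 was abundant too, with group means between 1309 and 1715 CPM. Group means were lower for Ciita (255 to 515 CPM), Zbtb46 (61.4 to 128 CPM), Batf3 (14.3 to 18.8 CPM) and Flt3 (5.14 to 8.55 CPM). Cd209a had at most 5 counts in a library. CPM are read counts of a gene relative to the library size after TMM scaling (trimmed mean of M values), so that values can be set side by side between libraries. Summed over 11 macrophage genes, levels ran from 2942 to 3126 CPM in WT, 3401 to 3488 CPM in WTL, 2397 to 2419 CPM in WT + JSH23 and 2801 to 2946 CPM in WTL + JSH23. Sums over 9 T and NK cell genes and 5 B cell genes stayed at or below 8.21 and 0.600 CPM, and those over 6 mast cell and basophil genes at or below 8.91 CPM. Replicate 3 of WTL + JSH23 stood apart from its group, with a chi-square per degree of freedom of 8.19 and 9.12 against the other 2 libraries, compared with 2.32 to 4.50 for all other pairs of replicates. Leaving it out changed the call of 1 of the 10 genes in 1 comparison, which is given with Traf2.

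The stretch of 250 bases before the RefSeq start was available for all 10 genes in 11 windows, 2 of them for Tnfrsf9. The windows of 4 genes are printed from the GRCm38.p6 table of RefSeq, 5′ to 3′ on the strand of the gene. These belong to a ligand, a receptor and an adaptor whose mRNA rose with LPS, and to a receptor not called changed with LPS. They lie at chr17:35202008-35202257 (minus strand) for Tnf, chr4:145246871-145247120 (minus strand) for Tnfrsf1b, chr2:34961773-34962022 (minus strand) for Traf1 and chr19:34290409-34290658 (plus strand) for Fas. Capitals mark matches of any of 4 motifs searched on both strands.
Tnf: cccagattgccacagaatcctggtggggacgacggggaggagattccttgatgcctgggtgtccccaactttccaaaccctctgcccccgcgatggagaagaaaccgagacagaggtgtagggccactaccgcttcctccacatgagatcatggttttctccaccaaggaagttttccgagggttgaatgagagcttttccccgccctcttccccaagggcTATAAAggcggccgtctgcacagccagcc
Tnfrsf1b: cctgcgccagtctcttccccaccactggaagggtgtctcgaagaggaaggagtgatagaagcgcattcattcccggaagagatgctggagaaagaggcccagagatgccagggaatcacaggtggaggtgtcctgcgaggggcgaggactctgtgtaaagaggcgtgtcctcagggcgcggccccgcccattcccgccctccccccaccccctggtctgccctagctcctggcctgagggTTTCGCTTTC
Traf1: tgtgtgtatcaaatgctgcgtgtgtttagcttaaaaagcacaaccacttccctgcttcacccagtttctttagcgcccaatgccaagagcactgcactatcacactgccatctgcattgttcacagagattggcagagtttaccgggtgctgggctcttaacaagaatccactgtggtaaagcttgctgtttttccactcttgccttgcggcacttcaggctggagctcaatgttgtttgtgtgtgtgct
Fas: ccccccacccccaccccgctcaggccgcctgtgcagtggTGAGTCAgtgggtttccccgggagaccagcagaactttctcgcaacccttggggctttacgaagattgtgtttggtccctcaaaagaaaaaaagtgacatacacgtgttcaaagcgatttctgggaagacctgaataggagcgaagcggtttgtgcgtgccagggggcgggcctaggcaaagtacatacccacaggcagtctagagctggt

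The motifs were TATAAA, the AP-1 consensus TGANTCA, the 10-base NF-κB consensus and the core of the interferon-stimulated response element (ISRE). The Tnf window held TATAAA between 29 and 24 bases before the start, a motif found in 12.4% of 32851 windows of this length. In the Tnfrsf1b window the ISRE core lay on the reverse strand at 10 to 1 bases before the start, and 2.98% of windows hold it. The Fas window held TGAGTCA at 211 to 205 bases before the start, a match of the AP-1 consensus that 6.75% of windows hold. The NF-κB consensus, present in 7.25% of windows, was found in the second Tnfrsf9 window as GGGATTTCCC, a match on both strands at 42 to 33 bases before that start, which was followed by TGAGTCA at 15 to 9 bases. It was also found in the Tnfaip2 window at 24 to 15 bases, on the reverse strand. The second Tnfrsf9 window and the windows of Tnfaip2, Tnfsf10, Tnfsf15 and Tnfrsf1a overlap annotated exons of their own gene. None of the 4 motifs was found in the windows of Traf1, Traf2, Tnfsf10, Tnfsf15 and Tnfrsf1a or in the first window of Tnfrsf9. These are matches of letters in a short window and not measured binding sites, and no binding data were used here.

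With LPS alone (WTL against WT), 5 of the 10 genes rose, 1 fell and 4 did not pass an adjusted p of 0.05. Over all genes tested, 31.0% were called higher and 34.7% were called lower in that comparison. Passing genes with more than 2-fold change were 4 of the 10 and 16.4% of all genes. After JSH-23 (WTL + JSH23 against WT + JSH23), 5 rose, 2 fell and 3 did not pass, where 27.4% of all genes were higher, 27.1% were lower and 10.3% passed with more than 2-fold change, as did 4 of the 10. JSH-23 under LPS (WTL + JSH23 against WTL) raised 1 and lowered 7 of the 10, beside 24.5% and 24.2% of all genes. More than 2-fold were 2 of the 10 and 7.00% of all genes. JSH-23 without LPS (WT + JSH23 against WT) raised 1 and lowered 5, beside 18.8% and 22.1%, with 2 of the 10 and 5.37% of all genes past 2-fold. Median log2 changes of the 10 genes in these 4 comparisons were 0.37, 0.33, -0.45 and -0.24, and those of all genes were -0.05, -0.02, 0.02 and -0.01. The split of all genes depended on scaling, with 1911 higher and 7802 lower for LPS alone in limma on log2(TPM + 1) against 4451 and 4986 in edgeR. After JSH-23 it was 1977 and 5947 against 3935 and 3893, and for JSH-23 under LPS it was 4242 and 1967 against 3516 and 3478. On that scale 5 of the 10 genes were lower with LPS in each case, while the same 5 genes were higher. The comparisons share libraries in pairs, so that WTL enters both the first and the third and WT enters both the first and the last. As the 10 genes were chosen with earlier results of these data known, their counts beside the shares of all genes are a description.

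**Figure D1:**
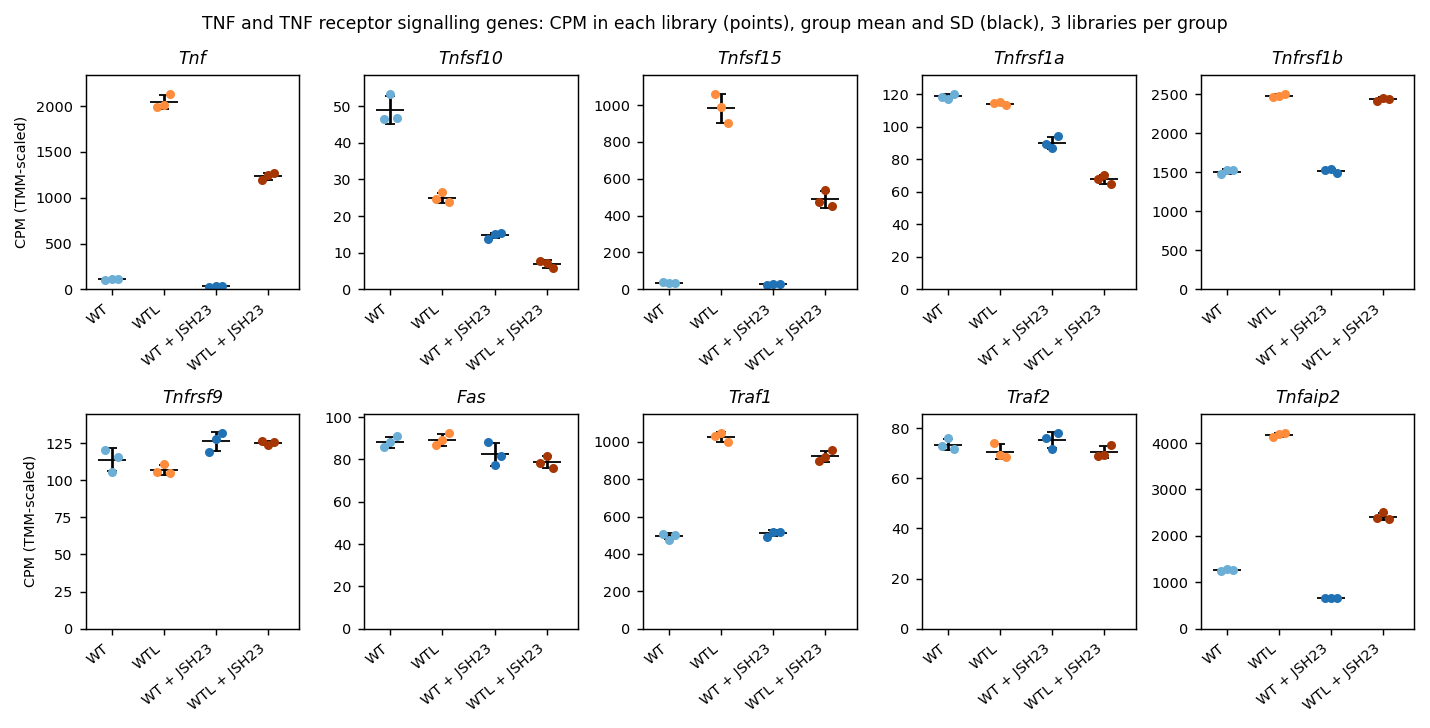
CPM (TMM-scaled, linear axes from 0) of the 10 genes in each of the 12 libraries (points), with the group mean and SD over 3 libraries (black). Tnf, Tnfsf15 and Tnfaip2 rose with LPS to lower levels after JSH-23 (1235, 489 and 2417 CPM) than without it (2043, 983 and 4179 CPM), while Tnfrsf1b reached 2436 and 2481 CPM.

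Among the ligands, Tnf (ENSMUSG00000024401.14, chromosome 17, 35199381 to 35202007, minus strand, GRCm38) encodes TNF itself. It stood at 102, 116 and 110.3 CPM in the WT libraries and at 1988, 2009 and 2132 CPM in the WTL libraries. After JSH-23 it stood at 28.7, 31.8 and 33.3 CPM without LPS and at 1190, 1246 and 1269 CPM with LPS. No 2 of the 4 groups overlapped, and JSH-23 libraries were the lower ones on both sides. LPS raised Tnf by 4.22 on the log2 scale (SE 0.0554, 18.7-fold, edgeR adjusted p = 9.48e-23), the 57th largest rise of the genes tested. After JSH-23 the rise was 5.30 (SE 0.0606, 39.5-fold, edgeR adjusted p = 8.55e-24), the 18th largest. JSH-23 lowered Tnf 3.50-fold without LPS (log2 change -1.81, SE 0.0573, edgeR adjusted p = 8.17e-16) and 1.65-fold under LPS (log2 change -0.73, SE 0.0481, edgeR adjusted p = 4.98e-11). The fold rise with LPS was thus larger after JSH-23, and the test of that difference, the interaction, gave a log2 value of 1.08 (SE 0.0745, edgeR adjusted p = 8.09e-09). On the CPM scale the order was the opposite. The rise in mean level was 1934 CPM without JSH-23 and 1204 CPM after it, 62.3% as much.

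Tnfsf15 (ENSMUSG00000050395.8, chromosome 4, 63727084 to 63745113, minus strand) encodes TL1A, a ligand that costimulates T cells through the receptor DR3. Its level was 38.4, 36.0 and 35.8 CPM in WT and 1060, 989 and 901 CPM in WTL. In WT + JSH23 it was 24.3, 27.7 and 27.6 CPM, and in WTL + JSH23 it was 476, 541 and 450.5 CPM. The groups again did not overlap. LPS raised it by 4.74 (log2, SE 0.0733, 26.7-fold, edgeR adjusted p = 5.19e-22), the 39th largest rise, and after JSH-23 by 4.21 (SE 0.0742, 18.4-fold, edgeR adjusted p = 7.41e-21), the 38th largest. In contrast to Tnf, JSH-23 lowered it less without LPS, by 0.47 on the log2 scale (1.39-fold, edgeR adjusted p = 3.78e-05), than under LPS, where it fell by 1.01 (2.01-fold, edgeR adjusted p = 1.13e-11). The interaction was -0.54 (SE 0.0985, edgeR adjusted p = 0.00063), opposite in sign to that of Tnf, and the rise in mean CPM after JSH-23 was 48.9% of that without it. TL1A's receptor gene Tnfrsf25 had at most 6 counts in any library.

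Tnfsf10 (ENSMUSG00000039304.11, chromosome 3, 27317028 to 27342427, plus strand) encodes TRAIL, a death ligand known as an interferon-induced gene. It was the only ligand of the 3 that fell with LPS. Its levels were 46.6, 53.3 and 46.7 CPM in WT, 24.6, 26.5 and 23.8 CPM in WTL, 13.8, 15.1 and 15.2 CPM in WT + JSH23, and 7.62, 7.28 and 5.70 CPM in WTL + JSH23. Each step down separated all libraries of 1 group from those of the next. LPS lowered it 1.95-fold (log2 change -0.96, SE 0.0687, edgeR adjusted p = 6.53e-11) and 2.13-fold after JSH-23 (log2 change -1.09, SE 0.0959, edgeR adjusted p = 3.54e-09). JSH-23 lowered it 3.33-fold without LPS (log2 change -1.74, edgeR adjusted p = 4.77e-14) and 3.62-fold under LPS (log2 change -1.86, edgeR adjusted p = 3.99e-13). Under LPS this was the 81st largest fall of the genes tested. For the interaction the log2 value was -0.12 with a 95% interval from -0.40 to 0.15, so the test did not show a difference between the LPS changes with and without JSH-23. The gene of TRAIL's mouse receptor, Tnfrsf10b, was at 5.66 ± 0.185 CPM in WT and 9.01 ± 0.214 CPM in WTL (SD, n = 3), and it rose with LPS by 0.67 (log2, edgeR adjusted p = 2.35e-06).

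**Figure D2:**
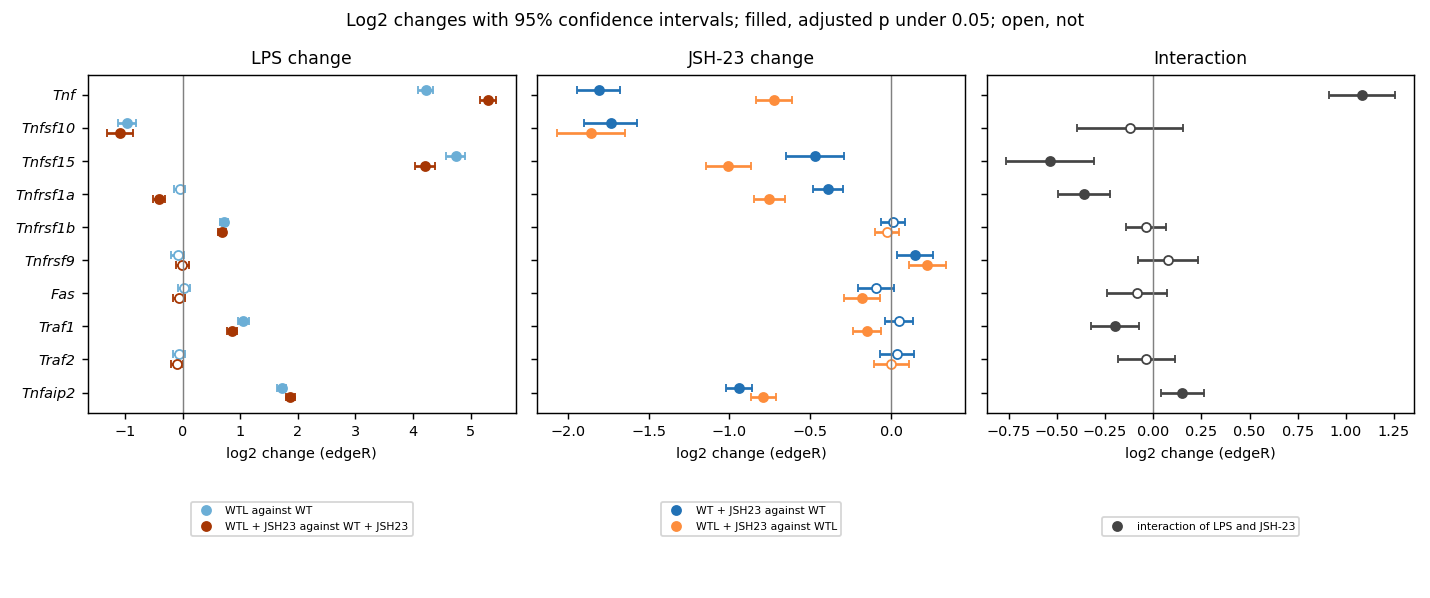
Log2 changes of the 10 genes (edgeR, horizontal axis) with 95% confidence intervals for LPS without and with JSH-23 (left), for JSH-23 without and with LPS (centre) and for the interaction (right), where filled points passed an adjusted p of 0.05. The interaction lies above 0 for Tnf (1.08) and Tnfaip2 (0.15) and below 0 for Tnfsf15 (-0.54), Tnfrsf1a (-0.36) and Traf1 (-0.20).

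Of the TNF receptor genes, Tnfrsf1b was called changed with LPS and not with JSH-23, whereas Tnfrsf1a was called lower in both JSH-23 comparisons and, after JSH-23, also with LPS. Tnfrsf1b (ENSMUSG00000028599.10, chromosome 4, 145213463 to 145246870, minus strand), the TNFR2 gene whose promoter is printed above, was at 1475, 1528 and 1525 CPM in WT and at 2468, 2474 and 2503 CPM in WTL. In WT + JSH23 it was at 1533, 1537 and 1495 CPM and in WTL + JSH23 at 2411, 2457 and 2442 CPM. The LPS libraries were all above the others, whereas WT and WT + JSH23 overlapped and the WTL + JSH23 libraries lay just below the WTL libraries. LPS raised it by 0.72 (log2, SE 0.0318, 1.64-fold, edgeR adjusted p = 2.08e-14) without and by 0.68 (SE 0.0318, 1.60-fold, edgeR adjusted p = 9.69e-14) with JSH-23. The change with JSH-23 was 0.01 (95% interval -0.06 to 0.09, edgeR adjusted p = 0.801) without LPS and -0.03 (-0.10 to 0.05, edgeR adjusted p = 0.525) under LPS. With limma on log2(TPM + 1) the latter was 0.09 in the other direction (adjusted p = 0.0236), on a scale on which the median of all genes moved to 0.10. The interaction did not pass, at -0.04 (95% interval -0.14 to 0.06).

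Tnfrsf1a (ENSMUSG00000030341.17, chromosome 6, 125349362 to 125362484, plus strand), the TNFR1 gene, was at 118, 117 and 120 CPM in WT and at 114, 115 and 113 CPM in WTL. With JSH-23 the libraries read 89.5, 86.9 and 94.2 CPM without LPS and 68.0, 70.1 and 64.7 CPM with it. The WTL libraries were all slightly below the WT libraries, but the log2 change of -0.05 (95% interval -0.15 to 0.04) did not pass (edgeR adjusted p = 0.25). That call depended on scaling, since it was -0.13 (adjusted p = 0.00721) with upper-quartile scaling and -0.40 (adjusted p = 3.6e-07) with limma on log2(TPM + 1), where the medians of all genes were -0.13 and -0.26. After JSH-23, LPS lowered it 1.33-fold (log2 change -0.41, SE 0.0421, edgeR adjusted p = 3.31e-08). JSH-23 lowered it 1.31-fold without LPS (log2 change -0.39, edgeR adjusted p = 5.94e-08) and 1.69-fold under LPS (log2 change -0.75, SE 0.0420, edgeR adjusted p = 3.09e-12). Its interaction of -0.36 (SE 0.0581, edgeR adjusted p = 0.000169) passed.

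Because TPM values are per transcript length, levels of different genes can be set side by side within a library. The ratio of Tnfrsf1b to Tnfrsf1a was 6.64 ± 0.0862 in WT, 11.5 ± 0.136 in WTL, 8.83 ± 0.341 in WT + JSH23 and 18.6 ± 0.398 in WTL + JSH23 (SD, n = 3). The ranges of the 4 groups did not overlap, and the largest ratio was that of cells given both agents. The ratio of Tnf to Tnfrsf1a was 1.23 ± 0.0731 in WT and 24.1 ± 1.05 in WTL. It was 0.463 ± 0.0298 in WT + JSH23 and 24.0 ± 1.02 in WTL + JSH23. Although both genes were lower with JSH-23 under LPS, the ranges of their ratio in the 2 LPS groups overlapped (23.4 to 25.3 and 23.1 to 25.1). These ratios are given as a description without a test.

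**Figure D3:**
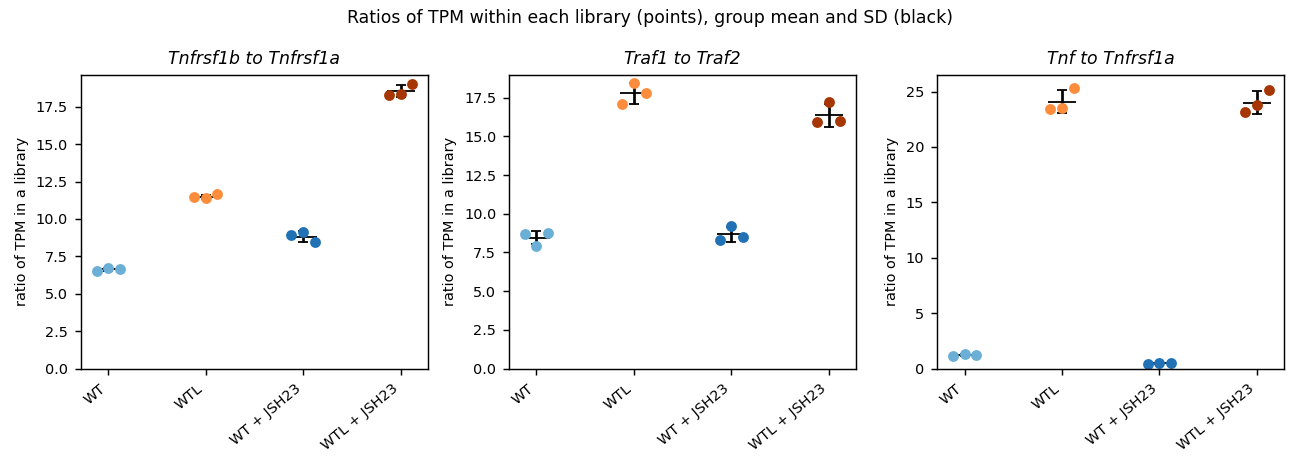
Ratios of TPM between 2 genes of the same library (vertical axes, linear from 0) for Tnfrsf1b to Tnfrsf1a, Traf1 to Traf2 and Tnf to Tnfrsf1a in the 12 libraries (points), with the group mean and SD in black. The first ratio rises from 6.64 in WT to 18.6 in WTL + JSH23, and the third reaches 24.1 and 24.0 in the groups with LPS.

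The 2 other receptors showed small changes. Tnfrsf9 (ENSMUSG00000028965.13, chromosome 4, 150914562 to 150946102, plus strand) encodes 4-1BB, a costimulatory receptor of T cells that binds the ligand of Tnfsf9. It was at 121, 106 and 116 CPM in WT, 106, 111 and 105 CPM in WTL, 119, 128 and 132 CPM in WT + JSH23, and 126, 124 and 126 CPM in WTL + JSH23. WT overlapped WTL and WT + JSH23, while the WTL + JSH23 libraries were all above the WTL libraries. JSH-23 raised it by 0.22 under LPS (log2, SE 0.0485, 1.17-fold, edgeR adjusted p = 0.000601), the single rise with JSH-23 among the 10 genes there. Without LPS the change was 0.15 (1.11-fold, edgeR adjusted p = 0.017), and it did not pass without WT replicate 5 (0.09, adjusted p = 0.14) or without WT + JSH23 replicate 3 (0.12, adjusted p = 0.0958). LPS changed it by -0.09 without JSH-23 (95% interval -0.20 to 0.02, edgeR adjusted p = 0.114) and by -0.01 after JSH-23 (-0.12 to 0.10, edgeR adjusted p = 0.867). Its change with LPS alone passed without WT replicate 5 (-0.14, adjusted p = 0.0137), with upper-quartile scaling (-0.17, adjusted p = 0.00446) and with limma on log2(TPM + 1) (-0.44, adjusted p = 1.16e-06). On that TPM scale its change after JSH-23 (-0.20, adjusted p = 0.00109) and its interaction (0.24, adjusted p = 0.021) passed as well, whereas in edgeR the interaction did not. The gene overlaps Camta1 on the other strand, and the strand setting of the counting was not given in the sources used here, so that reads of both genes may have been counted together. Expected counts of Tnfrsf9 were fractional, a sign of reads divided between features, in 0 of the 12 libraries. The ligand gene Tnfsf9 stood at 4.70 ± 1.02 CPM in WT and 87.97 ± 6.40 CPM in WTL.

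Fas (ENSMUSG00000024778.13, chromosome 19, 34290666 to 34327772, plus strand) encodes the death receptor CD95. Its levels were 85.7, 88.1 and 90.9 CPM in WT, 86.7, 89.0 and 92.4 CPM in WTL, 88.3, 77.6 and 81.7 CPM in WT + JSH23, and 78.5, 81.8 and 76.1 CPM in WTL + JSH23. All ranges overlapped except those of WTL + JSH23 with WTL and with WT. LPS changed it by 0.02 (95% interval -0.09 to 0.13, edgeR adjusted p = 0.758) without JSH-23 and by -0.07 (-0.18 to 0.04, edgeR adjusted p = 0.255) with it. With limma on log2(TPM + 1) the first of these was -0.30 (adjusted p = 0.000239) and the second was -0.24 (adjusted p = 0.0018), and the second also passed with upper-quartile scaling (-0.15, adjusted p = 0.0141). JSH-23 lowered it under LPS 1.13-fold (log2 change -0.18, SE 0.0485, edgeR adjusted p = 0.00405), a call that was lost with limma on log2(TPM + 1) (-0.08, adjusted p = 0.236). Without LPS the change was -0.09 (95% interval -0.20 to 0.01, edgeR adjusted p = 0.118), and it passed without WT + JSH23 replicate 1 (-0.15, adjusted p = 0.0237). The Fas ligand gene, Fasl, had at most 3 counts in any library, and Gm27818, annotated as misc_RNA, overlaps Fas on the same strand.

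Of the adaptor genes, Traf1 rose with LPS and Traf2 passed in none of the edgeR tests. Traf1 (ENSMUSG00000026875.14, chromosome 2, 34941750 to 34961772, minus strand) encodes an adaptor without a RING domain that binds TNFR2 and other receptors together with TRAF2. It was at 506, 475 and 502 CPM in WT, 1034, 1046 and 999 CPM in WTL, 493, 519 and 519.5 CPM in WT + JSH23, and 896, 920.3 and 954 CPM in WTL + JSH23. The LPS libraries were all above the others, and the WTL + JSH23 libraries were all below those of WTL. LPS raised it by 1.05 (log2, SE 0.0383, 2.08-fold, edgeR adjusted p = 6.71e-16) and after JSH-23 by 0.86 (SE 0.0382, 1.81-fold, edgeR adjusted p = 4.44e-14). JSH-23 did not pass without LPS (0.05, 95% interval -0.04 to 0.13, edgeR adjusted p = 0.36), and under LPS it lowered Traf1 1.11-fold (log2 change -0.15, SE 0.0378, edgeR adjusted p = 0.00212). The interaction of -0.20 (SE 0.0537, edgeR adjusted p = 0.0132) passed. Both of the latter calls were lost with limma on log2(TPM + 1), at -0.01 (adjusted p = 0.773) and -0.08 (adjusted p = 0.309).

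Traf2 (ENSMUSG00000026942.13, chromosome 2, 25517982 to 25546940, minus strand) encodes a RING-domain adaptor that recruits ubiquitin ligases to both TNF receptors, and it overlaps the pseudogene Gm13433 on the other strand. The 5 edgeR tests of Traf2 gave an unadjusted p between 0.0535 and 0.995. Its levels were 73.0, 76.0 and 71.6 CPM in WT, 74.0, 69.2 and 68.6 CPM in WTL, 76.2, 72.0 and 78.0 CPM in WT + JSH23, and 69.1, 69.4 and 73.5 CPM in WTL + JSH23, and all groups overlapped. The log2 change with LPS was -0.06 (95% interval -0.16 to 0.05), and after JSH-23 it was -0.09 (-0.20 to 0.01). The latter passed when replicate 3 of WTL + JSH23 was left out (-0.12, adjusted p = 0.037) and when replicate 2 of WT + JSH23 was left out (-0.13, adjusted p = 0.0386), and both passed with upper-quartile scaling (-0.14 and -0.18) and with limma on log2(TPM + 1) (-0.35 and -0.27). JSH-23 changed it by 0.04 (-0.07 to 0.14) without LPS and by 0.00030 (-0.11 to 0.11) under LPS. The ratio of Traf1 to Traf2 in TPM was 8.46 ± 0.446 in WT and 8.67 ± 0.484 in WT + JSH23, whose ranges overlapped. It was 17.8 ± 0.674 in WTL and 16.4 ± 0.729 in WTL + JSH23, where the ranges of 17.1 to 18.5 and 15.9 to 17.2 overlapped too.

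Tnfaip2 (ENSMUSG00000021281.15, chromosome 12, 111442469 to 111455018, plus strand) encodes M-Sec, a protein of membrane nanotubes that was first found as induced by TNF. It was at 1246, 1292 and 1272 CPM in WT, 4123, 4204 and 4210 CPM in WTL, 667.5, 667.5 and 649.9 CPM in WT + JSH23, and 2384, 2511 and 2355 CPM in WTL + JSH23. The 4 groups did not overlap. LPS raised it by 1.72 (log2, SE 0.0348, 3.29-fold, edgeR adjusted p = 4.05e-20) and after JSH-23 by 1.87 (SE 0.0351, 3.65-fold, edgeR adjusted p = 2.23e-20). JSH-23 lowered it 1.92-fold without LPS (log2 change -0.94, SE 0.0344, edgeR adjusted p = 6.74e-15) and 1.73-fold under LPS (log2 change -0.79, SE 0.0341, edgeR adjusted p = 5.87e-14). As with Tnf, the interaction was above 0, here at 0.15 (SE 0.0481, edgeR adjusted p = 0.0339), while the rise in mean level after JSH-23 was 1755 CPM, 60.3% of the 2909 CPM without it. This interaction was lost with DESeq2 size factors (0.13, adjusted p = 0.0794), with no filter on low counts (0.16, adjusted p = 0.0573) and in 7 of the 12 fits that left out 1 library. Tnfaip2 had fractional expected counts in 11 of the 12 libraries, that is, reads shared with other features, and the antisense gene Gm40578 overlaps it.

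Across the 10 genes the interaction passed for 5, with 2 higher and 3 lower, beside 9.54% and 8.44% of all genes. Past 2-fold were Tnf and 1.34% of all genes. Of the LPS-raised ligand genes, Tnf thus had a larger fold rise after JSH-23 and Tnfsf15 a smaller one. Marker genes moved with JSH-23 too, where 24.2% of all genes were lower under LPS and 22.1% without LPS. Of 9 dendritic cell genes tested, 6 were lower and 2 higher under LPS, and 4 were lower and 2 higher without LPS. Macrophage genes were lower in 8 of 11 under LPS and in 7 of 11 without LPS, against 2 of 11 higher in each case. Neutrophil genes were lower in 7 of 7 tested under LPS and in 2 of 7 without LPS, with none higher, at summed levels of 63.0 to 65.2 CPM in WTL + JSH23 and 84.1 to 85.8 CPM in WTL. The part of any of these in the changes of the 10 genes was not tested. In bulk RNA, fewer cells of a type and less RNA per cell cannot be told apart.

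Per transcript length, the order of the 10 genes changed with LPS. In WT the highest levels were those of Tnfrsf1b (688 ± 13.5 TPM), Tnfaip2 (627 ± 22.1 TPM) and Traf1 (445 ± 14.2 TPM), without overlap between neighbours. Fas (134 ± 3.94 TPM), Tnfrsf9 (131 ± 4.91 TPM) and Tnf (127 ± 7.74 TPM) followed, whose libraries overlapped from each to the next. Below them were Tnfrsf1a (104 ± 1.20 TPM) and Traf2 (52.7 ± 1.13 TPM), and then Tnfsf15 (19.2 ± 0.841 TPM) and Tnfsf10 (17.1 ± 1.44 TPM), which overlapped. In WTL, Tnf came first at 1885 ± 113 TPM, the 69th most abundant of all genes by this measure against rank 1115 in WT. It was followed by Tnfaip2 (1603 ± 44.7 TPM), Tnfrsf1b (899.7 ± 24.7 TPM), Traf1 (733 ± 12.9 TPM) and Tnfsf15 (407 ± 27.0 TPM). No neighbours overlapped in WTL, and the last place was held by Tnfsf10 at 6.91 ± 0.499 TPM.

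In WT + JSH23 the order was led by Tnfrsf1b (692 ± 18.9 TPM) and Traf1 (465 ± 12.7 TPM), with Tnfaip2 in the third place at 324 ± 14.3 TPM. Tnf, at 36.3 ± 2.67 TPM, lay below Traf2 at 53.7 ± 2.08 TPM. In WTL + JSH23, Tnf was again first at 1241 ± 22.9 TPM, followed by Tnfaip2 at 1008 ± 31.7 TPM and Tnfrsf1b at 960.1 ± 6.55 TPM. Neighbours did not overlap in either group, and Tnfsf10 was last in both, at 5.17 ± 0.466 and 2.40 ± 0.112 TPM. The transcript length given for Tnfsf10 varied between libraries from 3399 to 4993 bases, so that its TPM also depend on how its reads were assigned to transcripts.

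**Figure D4:**
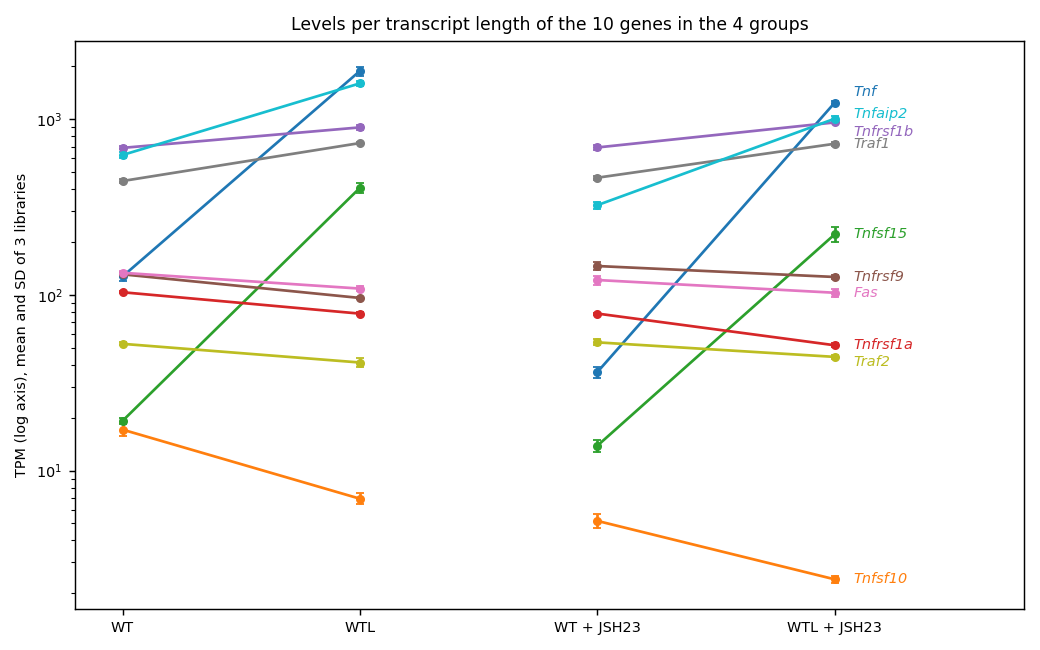
Mean TPM (RSEM, log axis) and SD of 3 libraries for the 10 genes in the 4 groups, where lines join the groups without and with LPS. Tnf runs from 127 to 1885 TPM without JSH-23 and from 36.3 to 1241 TPM after it, and Tnfsf10 lies lowest in each group.

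For 4 of the genes, the protein-coding genes with the most similar pattern were looked up among 12289 tested, by the root mean square difference of the 4 group means of log2 CPM, each gene centred on its own mean. For Tnf they were Nfkbiz (0.34), Il12a (0.40) and Gfi1 (0.41). For Traf1 they were Hcn3 (0.02), Larp4b (0.02) and Gmeb2 (0.02). For Tnfrsf9 (Dnajc27, Cebpz and Plekhm2) and for Fas (Ubtf, Mrps14 and Mfap1b) the differences were between 0.0074 and 0.0145, in patterns that were nearly flat over the 4 groups. The patterns rest on 4 points from the same libraries and carry no test.

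The other genes of the pathway were taken from 4 lists, of which 70 genes were tested. These lists were written with earlier results of these data known, so their counts too are a description. With LPS alone 37 were higher and 20 lower, beside 31.0% and 34.7% of all genes tested. After JSH-23, 35 were higher and 14 lower, beside 27.4% and 27.1%. JSH-23 under LPS went with 18 higher and 32 lower, beside 24.5% and 24.2%. Without LPS it went with 10 higher and 34 lower, beside 18.8% and 22.1%. Interactions passed for 20 of the 70, with 11 higher and 9 lower, beside 9.54% and 8.44%. The counts of each list below are to be read beside the same shares of all genes.

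Among other ligands, 9 of 15 were tested, and with LPS alone 5 rose and 3 fell. Cd70 (log2 change 4.52, SE 0.130, edgeR adjusted p = 1.29e-17), Tnfsf9 (4.24, SE 0.101, edgeR adjusted p = 5.93e-19) and Lta (3.59, SE 0.0869, edgeR adjusted p = 8.08e-19) had the largest rises. Cd70 and Tnfsf9 encode costimulatory ligands for T cells, and Lta, a neighbour of Tnf in the genome, encodes lymphotoxin alpha, which binds the same receptors as TNF. After JSH-23, 5 rose and 2 fell, and the same 3 genes had the largest rises, with log2 changes of 4.06 for Lta, 3.89 for Tnfsf9 and 3.21 for Cd70. Levels of Cd70 were low without LPS, at 1.14 ± 0.0575 CPM in WT and 2.18 ± 0.389 CPM in WT + JSH23. With LPS they were 26.0 ± 2.88 CPM in WTL and 20.1 ± 2.04 CPM in WTL + JSH23. Lta was at 4.50 ± 0.766 CPM in WT, 54.2 ± 2.60 CPM in WTL, 1.38 ± 0.315 CPM in WT + JSH23 and 22.9 ± 0.986 CPM in WTL + JSH23. JSH-23 lowered it under LPS 2.36-fold (log2 change -1.24, edgeR adjusted p = 4.78e-12), and its interaction of 0.47 did not pass (edgeR adjusted p = 0.076). JSH-23 raised 3 of the 9 ligands and lowered 5 under LPS, where the CD30 ligand gene Tnfsf8 fell 2.34-fold (33.0 to 14.1 CPM, edgeR adjusted p = 5.8e-11). Without LPS it raised 3 and lowered 3, among them the OX40 ligand gene Tnfsf4, which was 1.53-fold higher (edgeR adjusted p = 3.44e-09).

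Of other receptors, 18 of 24 were tested, and LPS alone raised 6 and lowered 7. The death-domain receptor gene Tnfrsf21 (DR6) fell 4.38-fold with LPS (23.7 ± 1.05 to 5.43 ± 1.04 CPM, edgeR adjusted p = 7.68e-14) and was 3.06-fold higher with JSH-23 under LPS (16.5 ± 2.10 CPM, edgeR adjusted p = 7.46e-11). After JSH-23, LPS raised 6 and lowered 6. JSH-23 raised 6 and lowered 6 under LPS, and raised 2 and lowered 7 without LPS. The largest rise with JSH-23 was that of the receptor gene Tnfrsf26, 3.76-fold under LPS (1.43 to 5.41 CPM, edgeR adjusted p = 2.23e-09) and 2.37-fold without LPS (3.40 to 8.04 CPM, edgeR adjusted p = 3.8e-08). Tnfrsf14, the gene of the receptor HVEM, fell 1.91-fold with JSH-23 without LPS (edgeR adjusted p = 5.42e-12).

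**Figure D5:**
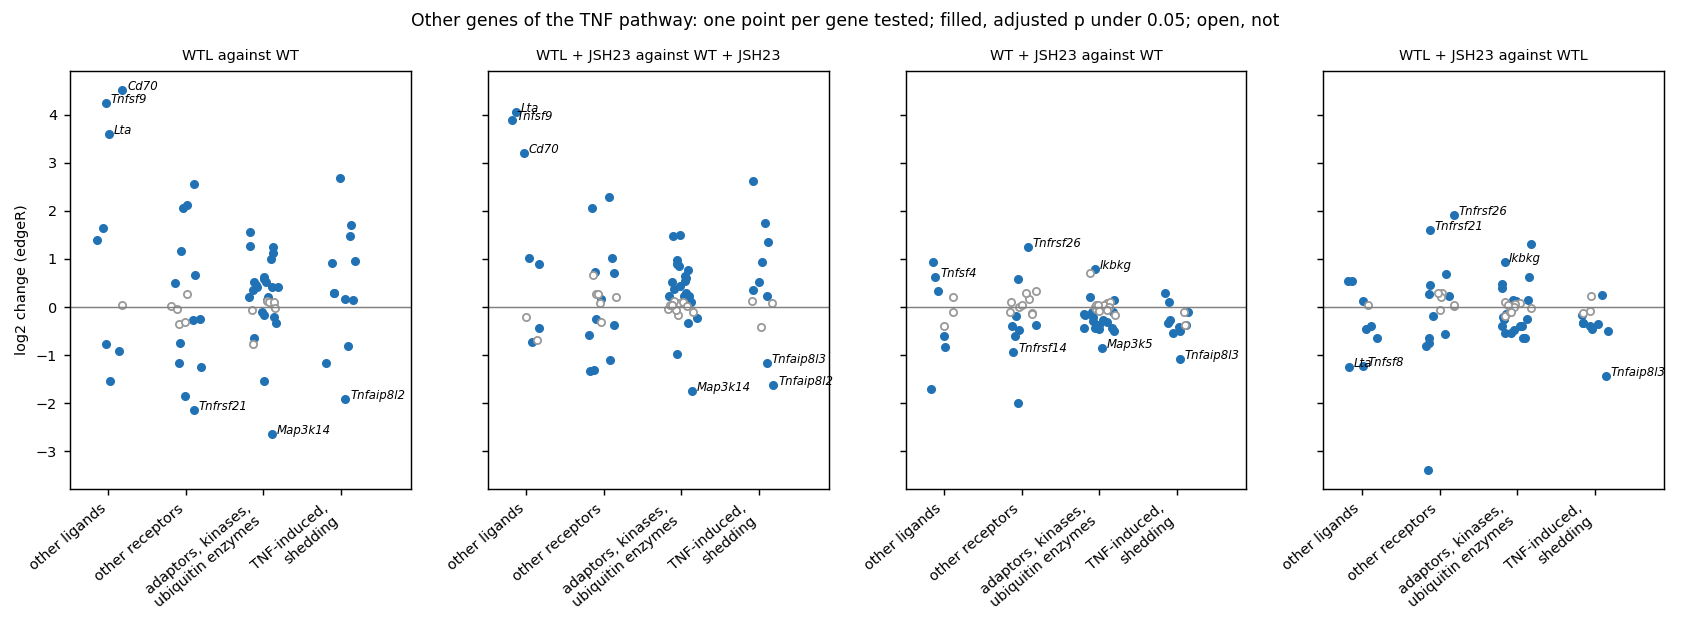
Log2 changes (edgeR) of the 70 other genes of the TNF pathway in 4 lists, with 1 point per gene, filled where the adjusted p was under 0.05. Ligands show the largest rises with LPS (Cd70 at 4.52 and Tnfsf9 at 4.24 without JSH-23). The largest fall with LPS alone is that of Map3k14 (-2.64), from the list of adaptors, kinases and ubiquitin enzymes. Of that list, 16 of 31 were lower with JSH-23 alone, beside 22.1% of all genes.

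All 31 adaptors, kinases and ubiquitin enzymes of the receptor complexes were tested. LPS raised 17 and lowered 7 without JSH-23, and raised 17 and lowered 4 after it. Map3k14, which encodes the NF-κB-inducing kinase of the alternative NF-κB pathway, fell 6.21-fold with LPS (263 ± 8.77 to 42.3 ± 0.983 CPM, edgeR adjusted p = 1.01e-20) and 3.37-fold after JSH-23 (218 ± 11.4 to 64.9 ± 3.38 CPM, edgeR adjusted p = 7.58e-18). JSH-23 lowered 13 and raised 8 under LPS, and lowered 16 and raised 3 without it. Ikbkg, the gene of the IKK subunit NEMO, was 1.90-fold higher under LPS (119 ± 4.36 to 226 ± 11.95 CPM, edgeR adjusted p = 2.45e-13) and 1.73-fold higher without LPS (111 ± 3.40 to 193 ± 4.56 CPM, edgeR adjusted p = 3.33e-12). Its values are uncertain, since it overlaps the protein-coding gene G6pdx on the other strand and had fractional counts in 11 libraries. Map3k5, which encodes the kinase ASK1, fell 1.81-fold with JSH-23 alone (10.1 ± 1.42 to 5.65 ± 0.368 CPM, edgeR adjusted p = 3.54e-07).

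TNF-induced proteins, their partners and proteins of TNF shedding had 12 of 13 genes tested. LPS raised 9 and lowered 3, and after JSH-23 it raised 7 and lowered 2. With JSH-23, 8 were lower and 1 was higher under LPS, and 8 were lower and 2 higher without LPS. Tnfaip8l3, which encodes a lipid transfer protein, fell with JSH-23 2.71-fold under LPS (24.5 ± 0.294 to 8.99 ± 1.12 CPM, edgeR adjusted p = 5.86e-11) and 2.13-fold without LPS (43.0 ± 4.39 to 20.3 ± 2.09 CPM, edgeR adjusted p = 1.91e-10). After JSH-23 it also fell with LPS, 2.25-fold (edgeR adjusted p = 1.33e-09). Tnfaip8l2, a gene known as a negative regulator of immune responses, fell with LPS 3.79-fold without JSH-23 (edgeR adjusted p = 3.83e-13) and 3.10-fold after it (edgeR adjusted p = 2.33e-11). Adam17, the gene of the protease that releases TNF from the cell surface, was chosen after its values were seen. It was lower with JSH-23 in both comparisons, with log2 changes of -0.35 under LPS (edgeR adjusted p = 8.39e-07) and -0.28 without it (edgeR adjusted p = 1.91e-05), and its change with LPS was 0.16 (edgeR adjusted p = 0.00331). Adam17 overlaps the protein-coding gene Iah1 on the other strand and had fractional counts in 12 libraries, so its values are uncertain.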

How the data were processed

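Gene expression was measured by paired RNA-seq in 12 libraries, grouped by their titles into 4 groups of 3. The study's methods describe the replicates as biological, and whether they came from separate animals was not stated, so p values measure the spread between these libraries. The labels and the study's methods name different RNA selection kits, and the strand setting of the counting was not given in the sources used here.

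The authors aligned the reads with STAR 2.6.0c to mm10 and deposited an RSEM expected count, a TPM value and a transcript length per gene over a GENCODE annotation of unstated release. Deposited expected counts are not normalized, and reads that fit several genes are divided between them. Gene names and positions were taken from GENCODE M21 (GRCm38).

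Rounded expected counts were analysed with edgeR 4.0.16 (R 4.3.3), in which filterByExpr kept 14357 genes, and libraries were scaled by TMM factors between 0.859 and 1.12. A quasi-likelihood F-test was fitted to all 12 libraries with 1 mean per group, with Benjamini-Hochberg adjustment over the genes kept. The interaction subtracts the LPS change without JSH-23 from that with it. An adjusted p under 0.05 made a call, and a stricter rule added more than 2-fold change. SE is the absolute log2 change divided by the square root of F. The script was tested on simulated data. Alternatives were DESeq2 1.42.0, other scalings and filters, limma 3.58.1 on log2(TPM + 1) and log2(TPM + 0.1), unrounded counts, fits of the compared groups alone, a replicate block and leaving out each library.

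The 10 genes, the 4 lists and the naming rule were chosen with earlier results of these data known. The rule names, per comparison and over the 4 lists together, the 3 largest rises and falls among genes that passed, where the higher group had 5 CPM or more on average and groups did not overlap (not asked for the interaction). The genes of ligands and receptors that pair with the 10 (Fasl, Tnfrsf10b, Tnfrsf25, Tnfsf9 and Lta) were added as known partners, and promoter sequences are from RefSeq.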

Additional observations from a re-analysis of the deposited data

Results flagged for a closer look

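For 5 of the 10 genes the interaction test of edgeR found the LPS change to depend on JSH-23. The log2 interaction was 1.08 for Tnf (adjusted p = 8.09e-09), -0.54 for Tnfsf15 (adjusted p = 0.00063), -0.36 for Tnfrsf1a (adjusted p = 0.000169), -0.20 for Traf1 (adjusted p = 0.0132) and 0.15 for Tnfaip2 (adjusted p = 0.0339). The value of Tnfaip2 did not pass in 9 of 21 alternatives, 7 of them fits that left out 1 library, and that of Traf1 did not pass on both TPM scales (-0.0758 and -0.0759).

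Among the other genes of the pathway named by the rule, the same test passed with values of 1.03 for Tnfrsf21 (adjusted p = 1.86e-05), 0.88 for Map3k14 (adjusted p = 2.95e-08) and 0.66 for Tnfrsf26 (adjusted p = 0.0319). It passed below 0 for Cd70 (-1.31, adjusted p = 0.000189), Tnfsf8 (-0.62, adjusted p = 0.002) and Tnfsf4 (-0.50, adjusted p = 5.44e-05). The value of Cd70 rests on low levels without LPS, at 1.14 CPM in WT and 2.18 CPM in WT + JSH23. The value of Tnfrsf26 did not pass in 7 of the 12 fits that left out 1 library (0.53 to 0.66 there) or with DESeq2 (0.64), with limma on log2(TPM + 1) (0.22, adjusted p = 0.333) or on log2(TPM + 0.1) (0.69, adjusted p = 0.055). That of Tnfsf8 did not pass with limma on log2(TPM + 0.1) (-0.50, adjusted p = 0.0799).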

How the results depend on the processing

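Of 1070 alternative values of the 50 tests of single genes, 1026 kept their direction and their side of the threshold, and 35 of the 50 tests kept both under every alternative run. The LPS-raised genes numbered 5 under every alternative run, with and without JSH-23. Genes lowered by LPS alone were 4 in place of 1 with upper-quartile scaling and 5 with limma on log2(TPM + 1) and on log2(TPM + 0.1), and between 1 and 2 when a library was left out (2 without WT replicate 5). After JSH-23 they were 4 in place of 2 with upper-quartile scaling and 5 with limma on either TPM scale. Genes raised by JSH-23 under LPS were 2 in place of 1 on both TPM scales, and those lowered were 5 in place of 7, without Fas and Traf1. Without LPS they were between 0 and 1 when a library was left out (0 without WT replicate 5 or WT + JSH23 replicate 3). Interactions above 0 were 1 in place of 2 with DESeq2 size factors and with no filter, and between 1 and 2 when a library was left out. On both TPM scales they were 3, with Tnfrsf9 added, and interactions below 0 were 2 in place of 3, without Traf1. The log2 change of Fas with LPS alone was reversed on the TPM scales (-0.296 and -0.298, against 0.02), as was that of Tnfrsf1b with JSH-23 under LPS (0.0939 and 0.0940, against -0.03). The cause of these changes was not tested, but for LPS alone the median change of all genes was -0.05 in edgeR, -0.13 with upper-quartile scaling and -0.26 with limma on log2(TPM + 1), and all genes called higher and lower numbered 4451 and 4986, 3749 and 5832, and 1911 and 7802. In the 4 wider lists, analysed under the same alternatives after the data had been seen, genes lowered by LPS alone were 31 in place of 20 on both TPM scales. Of the 642 alternative values of named genes of these lists, 631 kept direction and side.

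Same-numbered libraries of WT and WTL, and of the JSH-23 groups, had correlations of 0.0142 to 0.0614 between their deviations from the group means. Of these libraries, 5 of 6 correlated best with their own number. Whether the numbers pair the libraries was not settled, and the main tests did not pair them. With a replicate block, 5 genes were higher and 1 lower with LPS alone, as without it, and no call of the 10 genes changed. The JSH-23 comparisons share no replicate numbers. The 10 genes had at least 132 counts in every library, and whether depth limited their tests was not tested. The lowest counts were those of Tnfsf10, which also had the largest SE of the 10 genes (0.119 for its interaction). With 3 libraries per group, the precision of the small changes is limited.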
